A study of Homo sapiens with 4 samples.

Results

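Aminoacyl-tRNA synthetases are the enzymes that join each amino acid to its transfer RNA. The genes described here were those of the deposited table whose symbol is an amino acid letter followed by ARS and, where present, a digit, together with EPRS1, FARSA, FARSB, AIMP1 and AIMP2. This rule took 38 of 61806 genes, and it used names and no measured values. A symbol ending in 2 marks the mitochondrial enzyme, which gave 15 mitochondrial genes beside 21 cytosolic genes and 2 scaffold genes, AIMP1 and AIMP2. EARS2 and FARS2, the mitochondrial enzymes for glutamate and phenylalanine, are not taken by the rule and were counted with the other genes of tRNA charging.

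RNA was sequenced from JJ012, a human chondrosarcoma line, and 143B, a human osteosarcoma line, all detached from the culture surface. Each line was measured untreated (control) and after 1 mM melatonin for 72 h. Melatonin is the hormone of the pineal gland, and the study asked what it does to bone cancer cells that have lost their attachment. There was 1 library per condition and no replicate, so no difference between conditions was tested, and variation between cultures was not measured. The table columns carry the line name with or without the suffix T, and T was read as melatonin-treated, which the labels do not state. In every comparison the melatonin library was set against the control of the same line.

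Cytosolic synthetases charge the tRNAs that feed the main ribosomes, while a separate set, encoded in the nucleus and imported, charges the tRNAs of the mitochondrial ribosomes. GARS1 and KARS1 serve both compartments from a single gene. Some cytosolic enzymes sit in a multi-synthetase complex held together by the scaffold proteins AIMP1, AIMP2 and EEF1E1. When amino acids run short or the endoplasmic reticulum is stressed, the kinases of the integrated stress response raise translation of the transcription factor ATF4, and many cytosolic synthetase genes are known targets of ATF4.

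The libraries held 15889564 to 19218343 counts, and 13198 to 14477 genes reached 1 FPKM (counts scaled to exon length in kilobases and to library size). Together the 38 genes held 0.360% of all counts in untreated JJ012 and 0.489% in treated JJ012, against 0.326% and 0.332% in 143B. The share of counts from the mitochondrial genome was 6.78% and 4.35% in JJ012 and 1.63% and 2.46% in 143B. Markers of the labelled tissue types gave no single order of the lines. The cartilage factor SOX9 stood at 15.06 FPKM in the JJ012 control and 15.48 in the 143B control, fell to 6.16 after melatonin in JJ012, and measured 12.09 in treated 143B. The cartilage matrix genes COL2A1 and ACAN were at no more than 0.02 FPKM in JJ012. COL11A2 stood at 1.67 FPKM in the JJ012 control and 0.52 in the 143B control, and MATN3 at 0.91 and 0.64. COL9A1 was at 0.02 and 0 in these controls. Of the osteoblast markers, RUNX2 stood at 3.02 FPKM in the JJ012 control and 4.28 in the 143B control, and SPP1 at 79.39 and 0.40. In the same order BGLAP measured 0.81 and 1.44 FPKM, and ALPL 0.35 and 0.36. SP7 and IBSP were listed at 0 in the 143B control, against 0.12 and 0.13 in the JJ012 control. The T cell marker CD3E was at 9.73 and 3.28 FPKM in JJ012 and at 0 in both 143B libraries. PTPRC, the general leukocyte marker, was at 0.14 and 0.02 FPKM in JJ012 and 0.02 and 0.01 in 143B. CD68, a further leukocyte marker, measured 3.3 and 2.15 FPKM in JJ012 and 0.81 and 1.19 in 143B. The epithelial marker KRT18 measured 13.77 FPKM in the JJ012 control and 35.82 in the 143B control, and KRT8 5.46 and 9.64. EPCAM was likewise the higher in the 143B control. The endothelial marker PECAM1 measured 1.81 and 2.4 FPKM in these controls, and CDH5 0.11 and 0. The part of any of these in the results was not tested.

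The sequences below show where the element TGATGCAA lies in the promoters of the genes, because this sequence, searched on both strands, is a binding sequence known for ATF4 with C/EBP partners, and the cytosolic genes are compared further on by their membership of an ATF4 target list. RefSeq promoters (GRCh38.p14, 250 bases before to 50 after each start site) matched 30 of the 38 genes, with 40 windows. The element was found in 6 genes, all cytosolic: AARS1, CARS1, IARS1, MARS1, NARS1 and TARS1. These were 28.6% of the 21 windows of cytosolic genes, against 0 of the 14 windows of mitochondrial genes and 0.866% of all 35116 windows. Each line below gives 30 bases 5′ to 3′ on the strand of the gene, with the element, in either orientation, in capitals.
AARS1 (chr16:70289675-70289704, minus strand): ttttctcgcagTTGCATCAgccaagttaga
CARS1 (chr11:3057407-3057436, minus strand): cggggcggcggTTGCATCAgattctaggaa
IARS1 (chr9:92293692-92293721, minus strand): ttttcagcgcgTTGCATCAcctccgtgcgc
MARS1 (chr12:57488053-57488082, plus strand): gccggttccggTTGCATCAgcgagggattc
NARS1 (chr18:57621804-57621833, minus strand): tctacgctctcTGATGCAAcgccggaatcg
TARS1 (chr5:33440956-33440985, plus strand): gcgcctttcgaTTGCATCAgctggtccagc

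In NARS1 the element reads TGATGCAA along the gene, and in the other 5 genes it reads as the reverse complement. In 5 of the genes it lies within 22 bases of the start site, whereas in AARS1 it lies at positions -187 to -180 relative to it. With any base allowed at the sixth position (TGATGNAA), which is held by 3.62% of all windows, GARS1 and the mitochondrial YARS2 were added. The 8 bases in GARS1 lie at positions -33 to -26, in this 30-base stretch.
GARS1 (chr7:30594834-30594863, plus strand): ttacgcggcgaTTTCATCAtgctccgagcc

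A match is a description of the letters only, and binding was not measured.

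After melatonin the cytosolic synthetase genes stood higher in JJ012 and hardly moved as a class in 143B, while the mitochondrial genes had the larger median in 143B. The log2 fold change was computed on FPKM + 1, for genes that reached 1 FPKM in either library of the line, and an absolute value of 0.58 or more was counted as a change. In JJ012, 6 of 21 cytosolic genes rose, with a class median of 0.47, and 2 of the 13 mitochondrial genes that passed the filter rose, with a median of 0.12. AIMP2 rose too, so 9 of the 36 genes that passed were higher and 0 were lower. Across all 15794 genes that passed in JJ012, 19.6% were higher and 18.6% lower, with a median of 0.01. In 143B, 0 of 21 cytosolic genes passed the threshold, with a median of 0.09, and 2 of 14 mitochondrial genes rose, with a median of 0.30. The mitochondrial genes NARS2, in both lines, and SARS2, in 143B, passed the filter through the melatonin library alone. Values above 0 were therefore built in for them, and NARS2 is among the genes that rose in JJ012. With no filter the mitochondrial medians were 0.09 in JJ012 and 0.27 in 143B. With AIMP2, 3 of 37 were higher and 0 lower in 143B, where 6.09% of all 14135 genes were higher and 6.65% lower, with a median of 0.03. The cytosolic median was 0.35 above the mitochondrial one in JJ012 and 0.22 below it in 143B. With only genes at 5 FPKM or more the 143B medians were 0.07 and 0.09, so that this difference shrank to 0.02, while in JJ012 it was 0.30. Once the trend of fold change with exonic length was subtracted, the JJ012 difference shrank to 0.16, and that of 143B was -0.22.

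The summed counts of the classes gave the same order. The cytosolic genes together went from 2861 to 4158 CPM (counts scaled to library size) in JJ012, a ratio of 1.45 with an exact 95% interval of 1.44 to 1.47, and were at 2782 and 2781 CPM in 143B, a ratio of 1.00 (0.987 to 1.01). The mitochondrial genes were at 623 and 610 CPM in JJ012, a ratio of 0.980 (0.954 to 1.01), and at 394 and 448 CPM in 143B, a ratio of 1.14 (1.10 to 1.18). Single genes weigh heavily in these sums. In 143B, WARS2 alone went from 1314 to 1911 counts, of class totals of 6256 and 7689. In JJ012, IARS2 went from 3858 to 2760 counts, of 11966 and 9847. The intervals of these ratios cover counting error only, since reads without molecular identifiers are not independent molecules and cultures were not repeated.

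Among single genes in JJ012, the interval of the CPM ratio lay above 0 on the log2 scale for 15 cytosolic genes and below 0 for 1, KARS1. For the mitochondrial genes the interval lay above 0 in 5, below 0 in 4 and held 0 in 4. Over all genes of the line, 36.9% of intervals lay above 0 and 35.2% below. In 143B, 10 cytosolic intervals lay above 0 and 3 below, among them CARS1 and GARS1, and 8 mitochondrial intervals lay above 0 and 2 below. Here 28.4% of all genes had intervals above 0 and 23.5% below.

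**Figure D1:**
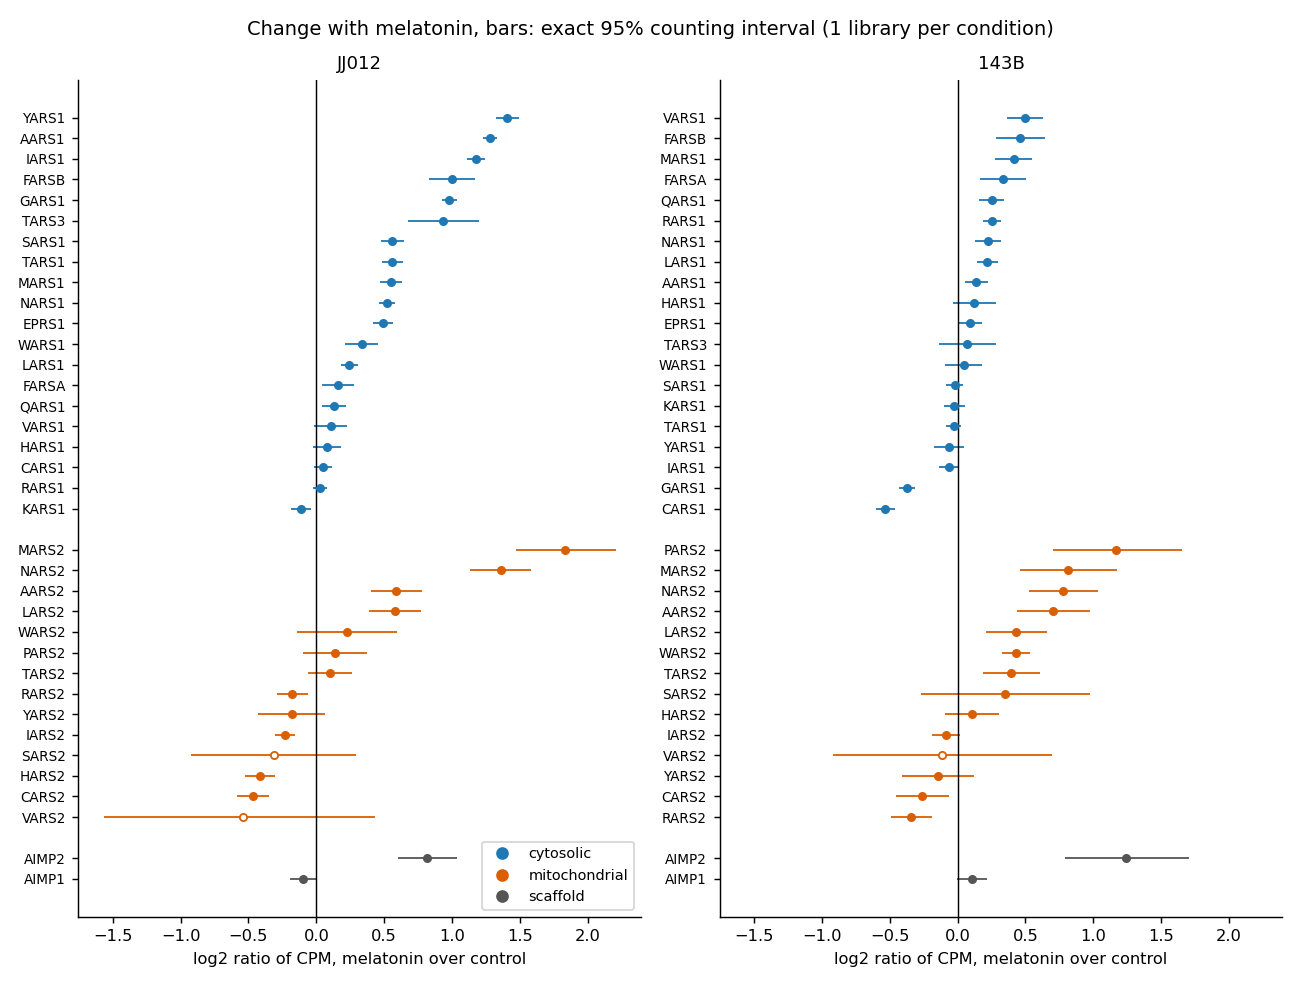
Log2 ratio of CPM, melatonin over control, for 36 of the 38 genes in JJ012 (left) and 143B (right), with cytosolic, mitochondrial and scaffold genes in separate blocks. Bars are exact 95% counting intervals from 1 library per condition, and open circles mark genes below 1 FPKM in both libraries of the line. In JJ012 the cytosolic block runs from KARS1 to YARS1 with 15 intervals above 0, and in 143B it runs from CARS1 to VARS1 with 10.

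The cytosolic gene with the largest rise was YARS1, the tyrosyl enzyme (chr1:32775237-32818031, minus strand, in the build hg38 of the deposited table). YARS1 measured 8.90 FPKM in the JJ012 control, 23.58 after melatonin, and 8.58 and 8.22 in the control and treated 143B libraries. The treated JJ012 library therefore stood alone, with the other 3 close together. The fold in JJ012 was 2.65, or 1.31 on the log2 scale, from 1672 and 3721 counts.

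AARS1, the alanyl enzyme, measured 21.72 and 52.73 FPKM in JJ012 and 12.20 and 13.43 in 143B. It was 2.43-fold higher after melatonin in JJ012, and its level in 143B differed between the libraries by 0.13 on the log2 scale. IARS1, the isoleucyl enzyme of the multi-synthetase complex, measured 6.62 and 14.94 FPKM in JJ012 and 9.05 and 8.64 in 143B. The treated JJ012 library was the highest, at 2.26-fold its control, which itself stood below both 143B libraries. AARS1 and IARS1 both carry the promoter element printed above.

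GARS1, the glycyl enzyme of cytosol and mitochondria (chr7:30580533-30634033, plus strand), was the gene whose libraries moved in opposite directions. It rose from 12.82 to 25.28 FPKM in JJ012, by 0.93 on the log2 scale, and measured 18.64 and 14.43 FPKM in 143B, where the value of -0.35 did not pass the threshold. It was the only one of the 38 genes with an interval above 0 in one line and below 0 in the other. KARS1, the lysyl enzyme and the other dual-compartment gene, measured 42.77 and 39.60 FPKM in JJ012 and 41.01 and 40.33 in 143B. Its 4 libraries thus lay close together while those of GARS1 did not.

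The phenylalanyl enzyme of the cytosol is built from an alpha subunit, FARSA, and a beta subunit, FARSB. FARSB measured 3.46 and 6.92 FPKM in JJ012 and rose, with a log2 fold change of 0.83. In 143B it measured 3.90 and 5.37 FPKM, a value of 0.38 under the threshold. FARSA measured 25.82 and 28.78 FPKM in JJ012 and 12.95 and 16.35 in 143B, with log2 values of 0.15 and 0.31. The beta subunit therefore differed more between the JJ012 libraries than the alpha subunit did, and the level of FARSA was the higher in each library.

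TARS3, a second cytosolic threonyl enzyme, measured 2.37 and 4.53 FPKM in JJ012, a rise of 0.71, and 5.11 and 5.37 FPKM in 143B. TARS1, the main threonyl enzyme, measured 30.03 and 44.26 FPKM in JJ012, with a value of 0.54 just under the threshold, and 74.27 and 72.82 FPKM in 143B. Further cytosolic genes just under the threshold in JJ012 were SARS1 (0.54), MARS1 (0.52), NARS1 (0.51) and EPRS1 (0.47), which charge tRNAs with serine, methionine, asparagine, and glutamate and proline. At the lower end in JJ012 were KARS1 at -0.11, RARS1 at 0.03 and CARS1 at 0.05. In 143B the cytosolic values ran from CARS1, the cysteinyl enzyme, at -0.51 and GARS1 at -0.35 up to MARS1 at 0.36, FARSB at 0.38 and VARS1, the valyl enzyme, at 0.45. CARS1 measured 20.42 and 21.13 FPKM in JJ012 and 23.23 and 16.07 in 143B, so the treated 143B library was the low one.

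Of the mitochondrial enzymes, the methionyl enzyme MARS2 (chr2:197705369-197708395, plus strand) rose in both lines, although in 143B its value dropped under the threshold, to 0.54, once the trend of fold change with exonic length was subtracted. MARS2 measured 1.44 and 5.14 FPKM in JJ012 and 2.10 and 3.70 in 143B. Both treated libraries stood above both controls. The log2 fold changes were 1.33 and 0.60, on low counts of 84 and 251 in JJ012 and 101 and 192 in 143B. NARS2, the asparaginyl enzyme, measured 0.78 and 1.99 FPKM in JJ012, a rise of 0.75, and 0.75 and 1.29 FPKM in 143B, a value of 0.39. NARS2 passed the filter in each line through its melatonin library alone, so a value above 0 was built into its passing.

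PARS2, the prolyl enzyme, measured 6.98 and 7.68 FPKM in JJ012 and 1.44 and 3.24 in 143B. It rose in 143B by 0.80 on the log2 scale, from 54 to 131 counts, and its JJ012 value of 0.12 was under the threshold. Both JJ012 libraries nevertheless stood above both 143B libraries. AARS2, the alanyl enzyme, was under the threshold in both lines, with log2 values of 0.49 and 0.51.

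The mitochondrial genes with the lowest values in JJ012 were CARS2 (-0.41), HARS2 (-0.40) and IARS2 (-0.23), the cysteinyl, histidyl and isoleucyl enzymes. HARS2 measured 24.43 and 18.30 FPKM in JJ012 and 6.55 and 7.05 in 143B. In 143B the lowest values were those of RARS2 (-0.25), CARS2 (-0.19) and YARS2 (-0.12), the arginyl, cysteinyl and tyrosyl enzymes. None of these passed the threshold, while the counting interval of CARS2 and RARS2 lay below 0 in both lines. VARS2 stayed below the filter in both lines, between 0.14 and 0.27 FPKM, and SARS2 in JJ012, at 0.99 and 0.80 FPKM. SARS2 passed in 143B only through its melatonin library, at 1.03 FPKM.

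The scaffold gene AIMP2 (chr7:6009255-6023834, plus strand) rose in both lines. It measured 8.43 and 14.84 FPKM in JJ012 and 2.00 and 4.72 in 143B, with log2 fold changes of 0.75 and 0.93. In each line the treated library was the higher, and the JJ012 libraries stood above those of 143B. AIMP1 measured 11.30 and 10.56 FPKM in JJ012 and 8.46 and 9.12 in 143B, with values of -0.09 and 0.10. The 8 cytosolic enzymes of the complex had a median of 0.18 in JJ012 with 1 higher, IARS1 (12.5%). The other 13 had a median of 0.54 with 5 higher (38.5%), where 19.6% of all genes were higher. In 143B these medians were 0.14 and 0.06.

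**Figure D2:**
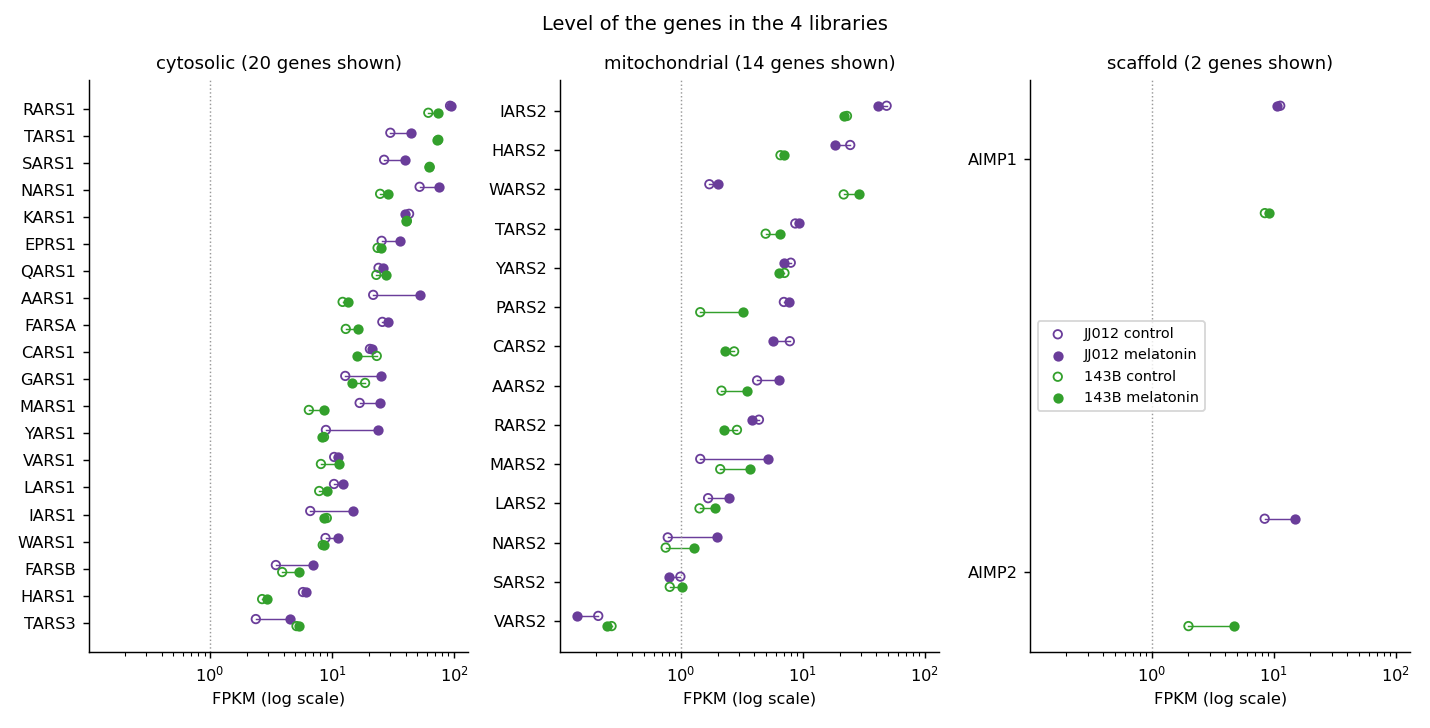
FPKM (log scale) of 36 of the 38 genes in the 4 libraries, with open circles for control and filled circles for melatonin, and a line joining the libraries of a cell line. The dotted line marks 1 FPKM. RARS1 is the highest cytosolic gene and IARS2 the highest mitochondrial gene by mean, and WARS2 shows the widest gap between the lines.

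Per length of exon, the cytosolic genes were the more abundant class. Their median was 20.42 FPKM in the JJ012 control, 25.28 after melatonin, and 12.95 and 14.43 in the 143B libraries. The mitochondrial medians were 4.36, 5.64, 2.73 and 3.50 FPKM in the same order. The cytosolic median was therefore between 4.12 and 4.74 times the mitochondrial one in every library. RARS1, the arginyl enzyme, was highest in its class with a mean of 80.5 FPKM over the 4 libraries, followed by TARS1 at 55.3. TARS3 at 4.34 and HARS1 at 4.36 were the lowest cytosolic genes. In the mitochondrial class IARS2 at 33.6 and HARS2 at 14.1 were the highest, and SARS2 at 0.91 and VARS2 at 0.22 the lowest. FPKM depends on the deposited exonic length, which for HARS1 was 14155 bases and for IARS1 22418 bases.

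A pair of enzymes, cytosolic and mitochondrial, was present for 15 amino acids, with EPRS1 set beside PARS2 for proline. The cytosolic FPKM was the higher in 13 pairs in each JJ012 library and in 12 pairs in each 143B library. The exceptions were the isoleucine pair and the histidine pair, joined in 143B by tryptophan. In JJ012 the log2 CPM ratio of the cytosolic enzyme exceeded that of its partner, with the interval of the difference above 0, in 9 pairs, and the reverse held in 4, among them leucine, methionine and asparagine. In 143B the cytosolic enzyme was ahead in 1 pair, arginine, and behind in 8. Tyrosine and isoleucine were furthest apart in JJ012 and proline in 143B.

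**Figure D3:**
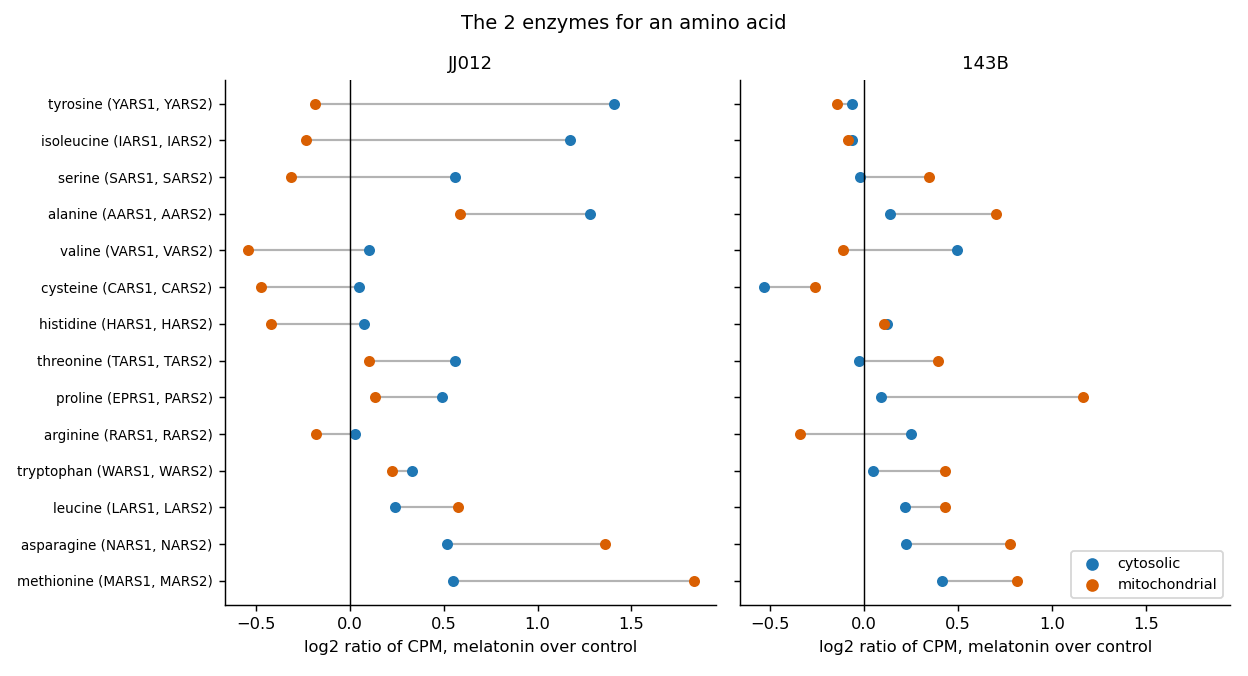
Log2 ratio of CPM, melatonin over control, of the cytosolic and the mitochondrial enzyme for 14 of the 15 amino acids in JJ012 (left) and 143B (right), ordered by the difference in JJ012. The cytosolic point lies furthest to the right of its partner for tyrosine in JJ012, and the mitochondrial point furthest to the right for proline in 143B.

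The change in JJ012 was set against that in 143B gene by gene, as a difference of log2 CPM ratios with a 95% counting interval. Of the cytosolic genes, 13 had a larger value in JJ012, 2 a smaller one (RARS1 and VARS1), and 6 intervals held 0. Of the mitochondrial genes, 2 had a larger value in JJ012, 4 a smaller one, and 9 held 0. Over 15233 genes of the table, 30.8% had a larger and 31.2% a smaller value in JJ012. The cytosolic genes were led by YARS1 with a difference of 1.47 (1.33 to 1.60), GARS1 with 1.35 (1.27 to 1.43), IARS1 with 1.24 (1.15 to 1.34) and AARS1 with 1.14 (1.04 to 1.24). At the other end PARS2 had -1.03 (-1.54 to -0.52). These differences rest on 1 library per condition and were not tested against variation between cultures.

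Both intervals lay above 0 for 14 of the 38 genes, of which 8 were cytosolic and 5 mitochondrial. The share of all genes with both intervals above 0 was not computed, so this tally is not read as particular to these genes. Pearson's r between the lines, across genes and given as a description, was -0.08 over the 21 cytosolic genes and 0.69 over the 15 mitochondrial genes. No filter was applied here, so the low counts of VARS2 and SARS2 are included. Genes are not independent replicates, the points share the 4 libraries, and r over all genes was not computed.

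**Figure D4:**
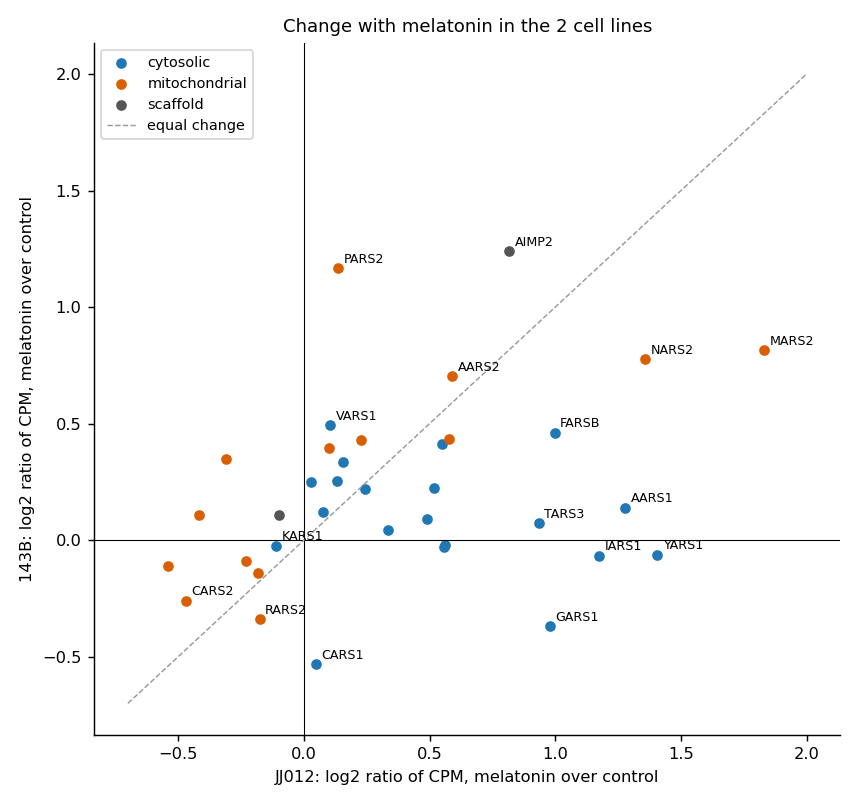
Log2 ratio of CPM, melatonin over control, in JJ012 (x axis) against 143B (y axis) for 36 of the 38 genes, coloured by class, with a dashed line of equal change. YARS1, AARS1, IARS1 and GARS1 lie far to the right, between -0.37 and 0.14 in 143B, while MARS2, NARS2 and AIMP2 are above 0 in both lines.

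Grouped by known regulation, the 12 cytosolic genes of the ATF4 target list (AARS1, CARS1, EPRS1, GARS1, IARS1, LARS1, MARS1, NARS1, SARS1, TARS1, WARS1 and YARS1) had a median of 0.53 in JJ012, with 4 higher (33.3%) and 11 intervals above 0. The other 9 cytosolic genes had a median of 0.10, with 2 higher (FARSB and TARS3, 22.2%) and 4 intervals above 0. Over all genes of the line the shares were 19.6% higher and 36.9% of intervals above 0, so the share of the other 9 that was higher lay near that of all genes. In 143B the order was turned, with medians of 0.01 and 0.24. The 6 genes with the promoter element had a median of 0.53 in JJ012, in a range from 0.05 for CARS1 to 1.24 for AARS1. The 10 cytosolic genes with a promoter window and no TGATGCAA had 0.23, from -0.11 for KARS1 to 0.93 for GARS1. In 143B these medians were 0.05 and 0.09. Among the cytosolic genes with no promoter window, which fall in neither group, were LARS1, TARS3 and YARS1, the gene with the largest cytosolic rise (1.31 in JJ012).

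**Figure D5:**
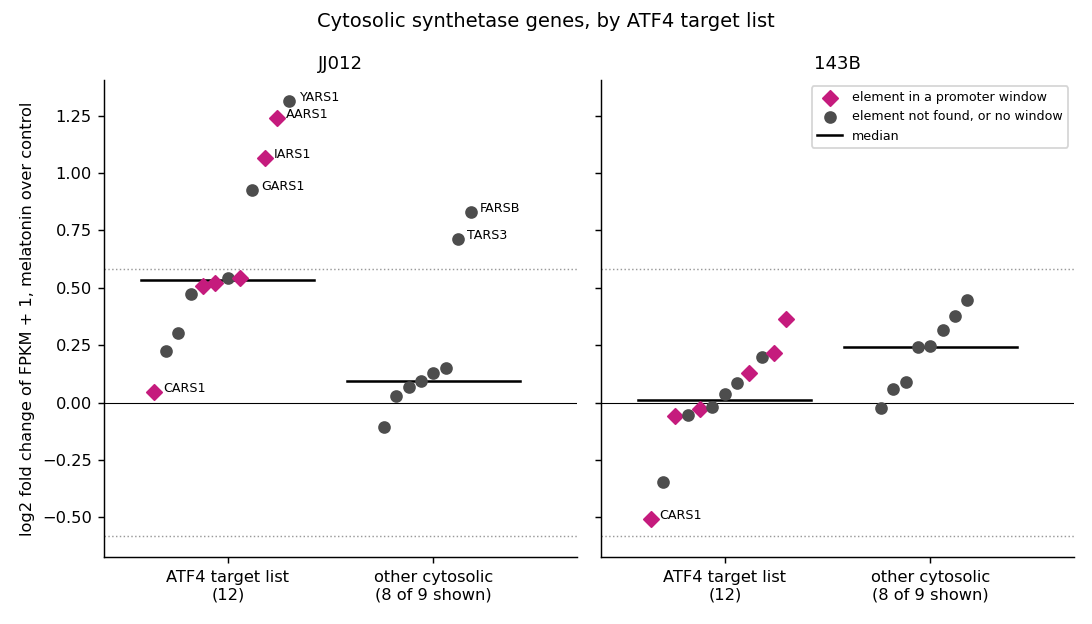
Log2 fold change on FPKM + 1 of the 12 cytosolic genes on the ATF4 target list and 8 of the other 9, in JJ012 (left) and 143B (right), with a bar at the median of all 12 and all 9 and dotted lines at 0.58 and -0.58. Diamonds mark genes with the promoter element. In JJ012 the listed genes have a median of 0.53 and the others 0.10, and in 143B the medians are 0.01 and 0.24.

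The synthetases fall into catalytic classes I and II, which differ in the fold of the active site. In JJ012 the 11 cytosolic genes of class II had a median of 0.54 with 4 higher (36.4%). The 10 of class I had 0.26 with 2 higher (20.0%), near the 19.6% of all genes. In 143B the order of the cytosolic genes was turned, with 0.06 for class II and 0.14 for class I, and 0 higher in each. The mitochondrial genes of class II had a median of 0.31 and those of class I -0.14 in JJ012, and 0.35 and -0.08 in 143B.

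Of 13 other genes of tRNA charging that passed the filter in JJ012, 3 rose (23.1%, near the 19.6% of all genes), 0 fell and the median was 0.43. They were XPOT, the exporter of tRNA from the nucleus, from 23.22 to 57.37 FPKM, QRSL1, a subunit of the enzyme that makes mitochondrial glutaminyl-tRNA by amidating misacylated glutamyl-tRNA, with 0.73, and EARS2 with 0.64. In 143B, 2 of 13 rose (15.4%, against 6.09% of all genes), with a median of 0.21. These were MTFMT, which formylates the mitochondrial initiator methionyl-tRNA, with 0.75, and DTD2, which removes D-amino acids from tRNA, with 0.70. XPOT measured 22.93 and 23.29 FPKM in 143B. EEF1E1, the third scaffold gene of the complex, measured 5.88 and 7.95 FPKM in JJ012 and 3.41 and 5.30 in 143B, under the threshold in both.

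Of 13 genes of the integrated stress response that passed in JJ012, 5 rose (38.5%) and 1 fell (7.69%), with a median of 0.55. Over all genes of JJ012, 19.6% were higher and 18.6% lower. SLC7A11, the cystine transporter, rose by 2.41, DDIT3 (CHOP) from 44.23 to 162.32 FPKM, the pseudokinase TRIB3 by 1.14, the amino acid transporter SLC7A5 by 1.02 and the serine synthesis gene PSAT1 by 0.91, while PSPH, of the same pathway, fell by 0.82. ATF4 measured 135.49 and 202.61 FPKM in JJ012, just under the threshold, and 345.50 and 352.52 in 143B. In 143B, 2 of 14 rose, ATF5 (0.72) and CHAC1 (0.60), and 1 fell, DDIT3, from 17.53 to 10.88 FPKM. These were 14.3% higher and 7.14% lower, against 6.09% and 6.65% of all genes of 143B. The lower share thus lay near that of all genes. CHAC1, at 0.46 and 1.22 FPKM, passed the filter through its melatonin library alone. MARS1 shares 982 bases of its span with DDIT3 on the opposite strand, where DDIT3 held 1111 and 3425 counts in JJ012. The strand setting of the counting is not given in the sources used here, so reads of the shared bases cannot be told apart.

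By their whole spans, introns included, 30 of the 38 genes overlap another gene of the table, 14 of them on the same strand. An overlap of spans need not touch exons. Some partners, such as MIR3651 within IARS1, held 0 counts in all 4 libraries. The share of all genes with such an overlap was not computed. AIMP2 overlaps EIF2AK1, a kinase of the integrated stress response, on the opposite strand over 1588 bases, and HARS1 and HARS2 overlap each other. GARS1 and GARS1-DT share 14754 bases of their spans on opposite strands.

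Before treatment, by counts scaled to the library total, JJ012 was the higher for 10 cytosolic and 9 mitochondrial genes by their counting intervals, and 143B for 6 and 2. Over 16929 genes of the table, 50.8% were higher in JJ012 and 35.1% in 143B, with a median log2 ratio of 0.37. With TMM scaling, chosen after seeing the data, that median was 0.02 and the cytosolic tally turned, to 7 genes higher in JJ012 and 12 in 143B, while the mitochondrial one was 8 and 3. The folds between controls given next are on the library total. The widest gap was that of WARS2, the mitochondrial tryptophanyl enzyme (chr1:119031216-119140654, minus strand). WARS2 measured 1.71 and 2.01 FPKM in JJ012 and 21.59 and 29.07 in 143B, a fold of 12.6 between the controls, with no overlap of the lines. A log2 ratio below -3 in the same direction was found in 6.72% of 12329 protein-coding genes. In 143B, unlike in JJ012, its level was above that of the cytosolic WARS1, which measured 8.38 and 8.64 FPKM there. Among genes higher in the JJ012 control were PARS2 by 2.27 on the log2 scale, AIMP2 by 2.08, CARS2 by 1.52 and MARS1 by 1.38, with HARS2 at 3.73-fold. TARS1, SARS1 and TARS3 were higher in the 143B control, with log2 ratios of JJ012 over 143B of -1.31, -1.24 and -1.11.

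In JJ012 the fold change went with exonic length, with a Spearman coefficient of 0.40 across protein-coding genes and 0.17 across the 36 synthetase and scaffold genes that passed, while in 143B these were -0.13 and -0.34. After a running median over length was subtracted, the cytosolic median in JJ012 was 0.37 and the mitochondrial one 0.21. GARS1 (0.57) and NARS2 (0.43) then stood under the threshold in JJ012, SARS1 (0.65) and TARS1 (0.59) passed it, and CARS2 was at -0.70. On TPM, which scales FPKM to a common sum, the median over genes of JJ012 was 0.21. The filter at 1 TPM passed 23242 genes, against 15794 at 1 FPKM, so the sets of genes differed. Of the changed genes, 62.3% were higher on TPM and 51.4% on FPKM. Relative to the TPM median of 0.21, the cytosolic genes were at 0.55 and the mitochondrial genes at 0.18.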

How the data were processed

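Total RNA of 4 libraries was sequenced by the authors, 1 per condition. The deposited table gives raw counts for each gene and FPKM that the authors derived from them with the library total and the exonic length (recomputed here to within 0.005). The submitters' processing notes name cutadapt 1.9.1, HISAT2 2.2.1, HTSeq 0.6.1, DESeq2 and the build hg38, with no role or order. The strand setting is not given in the sources used here. The table held 0 columns of other samples.

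Fold changes used log2 of FPKM with a pseudocount of 1, a filter of 1 FPKM in at least 1 library of the line, and the study's fold threshold of 0.58. CPM ratios were given exact (Clopper-Pearson) 95% intervals, and differences between lines a normal interval for Poisson counts. The floor of 3 counts was 0.156 to 0.189 CPM. The running median over exonic length spanned 500 genes. edgeR 4.0.16 (R 4.3.3) gave TMM factors only, since its tests need replicates. Python 3.11.15, numpy 2.4.6, pandas 2.3.3, scipy 1.17.1 and matplotlib 3.10.9 were used, gene types came from GENCODE 29 and promoters from RefSeq (GRCh38.p14). Scripts were tested on simulated counts.

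Named genes were those past the threshold, the 3 highest and 3 lowest values per class and line, the 2 most and 2 least abundant per class, GARS1, KARS1, FARSA, FARSB, AIMP1 and AIMP2, with the members of the ATF4, tRNA charging and stress response lists that moved. The genes, lists and alternatives were chosen with earlier results of these data known. Alternatives were a pseudocount of 0.1, no filter, a filter of 5 FPKM, TMM, median-of-ratios, TPM, length correction, a threshold of 1, leaving out GARS1 and KARS1, and counting the scaffold genes as cytosolic. TMM and median-of-ratios scaling of the comparisons between lines were added after seeing the data. Single values of 2 genes, which stay in the counts, sums and medians, are not reported here.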

Additional observations from a re-analysis of the deposited data

Results flagged for a closer look

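GARS1, the glycyl enzyme of both compartments, stood higher after melatonin in JJ012 and lower in 143B, which drew attention to it. Its log2 CPM ratio was 0.98 (0.93 to 1.04) in JJ012 and -0.37 (-0.43 to -0.31) in 143B, a difference of 1.35 (1.27 to 1.43). The difference was not tested, because each condition had 1 library and the intervals cover counting error only. GARS1 shares bases of its span with GARS1-DT, which held 1134 and 1034 counts in JJ012 and 897 and 771 in 143B. The part of this overlap in the result was not tested.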

How the results depend on the processing

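No paired analysis was possible because each condition had 1 library. A count was taken as moved when it changed by more than 1.5 times, and a ratio or median when it changed by more than the half-width of its counting interval, for a median the median half-width of its genes. This limit is wide for the mitochondrial genes of 143B, whose median went from 0.30 to 0.09 with a filter of 5 FPKM, within it. On this scale 114 of 142 planned values stayed and 28 moved. These values include the counts of genes lower, 0 for both classes in both lines, which mostly stayed at 0. The class difference of JJ012 went from 0.35 to 0.16 after the length trend and was still counted as staying. That of 143B went from -0.22 to -0.02 with a filter of 5 FPKM and was counted likewise. The tally is therefore no measure of how firm the class differences are. Whether a value past the fold threshold changed sign could not be asked, because no main median or ratio reached it (largest 0.54). Signs of smaller values did change. The mitochondrial summed log2 ratio of JJ012 turned positive with TMM and on TPM. It stayed negative with median-of-ratios scaling and a filter of 5 FPKM. The cytosolic one of 143B, -0.0007 before, turned positive with TMM, without GARS1 and KARS1, and with AIMP1 and AIMP2 added. It stayed negative in its other settings. The cause of each move was not tested. In JJ012, TMM scaling gave 10 cytosolic genes higher, a cytosolic summed log2 ratio of 0.62 and a mitochondrial one of 0.0488, against -0.03 before. TPM gave 12 cytosolic genes higher, a cytosolic median of 0.76 and a summed ratio of 0.67, with 5 mitochondrial genes higher, a median of 0.38 and a summed ratio of 0.21. Median-of-ratios scaling gave a cytosolic summed ratio of 0.52. A filter of 5 FPKM gave a cytosolic median of 0.39, 1 mitochondrial gene higher and a mitochondrial summed ratio of -0.10. Subtracting the length trend gave a cytosolic median of 0.37, with 1 mitochondrial gene higher and 1 lower. A threshold of 1 left 3 cytosolic genes and 1 mitochondrial gene higher. With AIMP1 and AIMP2 counted as cytosolic the summed ratio was 0.52.

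In 143B the number of mitochondrial genes higher was 4 with a pseudocount of 0.1 and on TPM, 1 after the length trend, and 0 with a filter of 5 FPKM or a threshold of 1. TPM gave 1 cytosolic gene lower, CARS1. The cytosolic summed ratio was -0.0395 with median-of-ratios scaling and 0.0462 without GARS1 and KARS1, and with AIMP1 and AIMP2 counted as cytosolic 1 gene was higher.

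Between the controls of the lines, added after seeing the data, TMM and median-of-ratios scaling each put 12 cytosolic genes higher in 143B, against 6. With TMM 2 mitochondrial genes, against 4, had a smaller change in JJ012 than in 143B.

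With 1 library per condition the spread between cultures is unknown, and the lowest gene counts, 15 to 28 per library for VARS2, leave its interval wide in both lines.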

Other observations

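Some neighbours of WARS2 on chromosome 1 were also far higher in 143B, a comparison made after its values were seen. Of the 14 protein-coding genes within 2 Mb of WARS2, itself included, with at least 1 FPKM in a control library, 4 were lower in the JJ012 control than in the 143B control by more than 3 on the log2 scale, as were 6.72% of 12329 protein-coding genes of the table. Besides WARS2 these were the transcription factor gene TBX15 (2.87 FPKM in JJ012, 71.73 in 143B), ZNF697 (5.48 and 79.63) and PHGDH, the first enzyme of serine synthesis (1.94 and 47.83). The antisense gene WARS2-AS1 measured 1.64 and 7.65 FPKM. On either side, NOTCH2 measured 18.33 and 18.62 FPKM and MAN1A2 8.64 and 15.17, while SPAG17 was the higher in JJ012, at 2.07 and 0.05. The other 10 protein-coding genes were no lower than -1.83. All are levels in 1 library per line.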
